A study of Drosophila melanogaster with 16 samples.

Results

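The 40 genes described here carry systematic symbols (CG and digits) and lay lower in Drosophila melanogaster larvae on a high-sugar diet (HSD) at every time sampled than in larvae on a low-sugar diet (LSD). They were chosen on these same values: a mean normalised read count of 5 or more in at least 1 group, and a group mean of log2(value + 0.5) at least 0.6 below that of LSD in HSD at 4 h, at 8 h and at 16 h. The deposited table holds 10128 genes, of which 4434 had such a symbol, 3810 of these reached the mean of 5, and 41 met the thresholds. CG6271, a lipase gene, was left out beforehand with 7 other named symbols, which left 40. The differences from LSD below are therefore a description, and no test of them is given.

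All larvae were wild type. They were reared on LSD (10% yeast) and moved early in the second instar to fresh LSD or to HSD, which is the same yeast food with 15% sucrose. The new food held a blue dye, and feeding larvae were frozen whole after 8 h on LSD (n = 4) and after 4 h (n = 3), 8 h (n = 3) and 16 h (n = 4) on HSD. No LSD group at 4 h or 16 h was analysed here, so away from 8 h the effect of diet and the effect of larval age cannot be told apart. Because RNA came from whole larvae, fewer cells of a type and less RNA per cell cannot be told apart either. Whether replicates were separate cultures is not in the labels, so a p-value reflects only how these libraries vary, and that variation may be technical.

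Insect larvae break down amino acids from dietary yeast for energy when sugar is scarce, and on sugar-rich food they turn carbohydrate into fat. Tyrosine, threonine and other amino acids each have their own chain of catabolic enzymes, many of them made in the fat body, the organ that combines the tasks of liver and adipose tissue. Ribosomes are assembled in the nucleolus from ribosomal RNA that is processed and modified there, and genes for this machinery are transcribed in step with growth. Second-instar larvae also molt, and cuticle genes are switched on and off around the molt.

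Reads per library numbered 16300308 to 25284073, and 3 reads, the limit that a count of 0 allows, corresponded to a value of 0.117 to 0.182. This limit covers counting error only. The summed level of 6 cuticle and molt markers was 11200 to 24300 in LSD, 11600 to 16000 in HSD at 4 h, 8430 to 13000 at 8 h and 768 to 4200 at 16 h. That of 6 gut markers was 833 to 1340 in LSD, 727 to 1380 at 4 h, 1670 to 2110 at 8 h and 2020 to 2610 at 16 h. Muscle, the tissue with the highest marker sum, lay at 33100 to 39800 in LSD and 28500 to 30700 at 16 h. Of the 6 fat body markers 2 were measured, the sugar-responsive FASN1 among them, and these summed to 332 to 527 in LSD and 2990 to 5100 in HSD. Neuron markers summed to 540 to 762, hemocyte markers to 28.2 to 147 and Malpighian tubule markers to 695 to 1170 over all libraries. Of 5 salivary gland markers 2, and of 4 testis markers 1, were measured, and they summed to at most 10.2 and 15.3. The cuticle gene TwdlJ lay at 17.4 and 33.6 in LSD replicates 2 and 3, at 12.5 in replicate 2 of HSD at 16 h, and at 15.8 to 42.4 in all 3 libraries of HSD at 8 h. It lay at 0 to 0.938 in the other 8 libraries. Among the members, 11 (27.5%) lay higher in both LSD replicates 2 and 3 than in both LSD replicates 1 and 4, against 17.8% of all genes tested, and 2 (5.0%) lay lower in both, against 17.1%.

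Across the 40 members the log2 difference from LSD ran from -2.55 to -0.61 at 4 h (median -1.09), from -3.19 to -0.64 at 8 h (median -1.18) and from -3.95 to -0.62 at 16 h (median -1.62). The lowest of the HSD means was at 16 h for 25 members, at 8 h for 9 and at 4 h for 6. The LSD means spanned 6.70 to 606, with a median of 23.9 against 25.8 over all genes tested. Every HSD library lay below every LSD library for 34 members at 4 h, where 14% of all genes tested did so, for 33 at 8 h (18.4%) and for 37 at 16 h (18.1%). At all 3 times this was the case for 27 members, against 4.04% of all genes, and nothing is read from these shares because the rule used the same differences. Nearest inside the threshold were CG8850 (-0.61 at 4 h), CG12288 (-0.62 at 16 h) and CG11583 (-0.62 at 16 h). Nearest outside it were CG33051, whose difference at 16 h rounds to -0.60 but missed the threshold, and CG7560 and CG31248, both at -0.58 at 4 h.

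**Figure D1:**
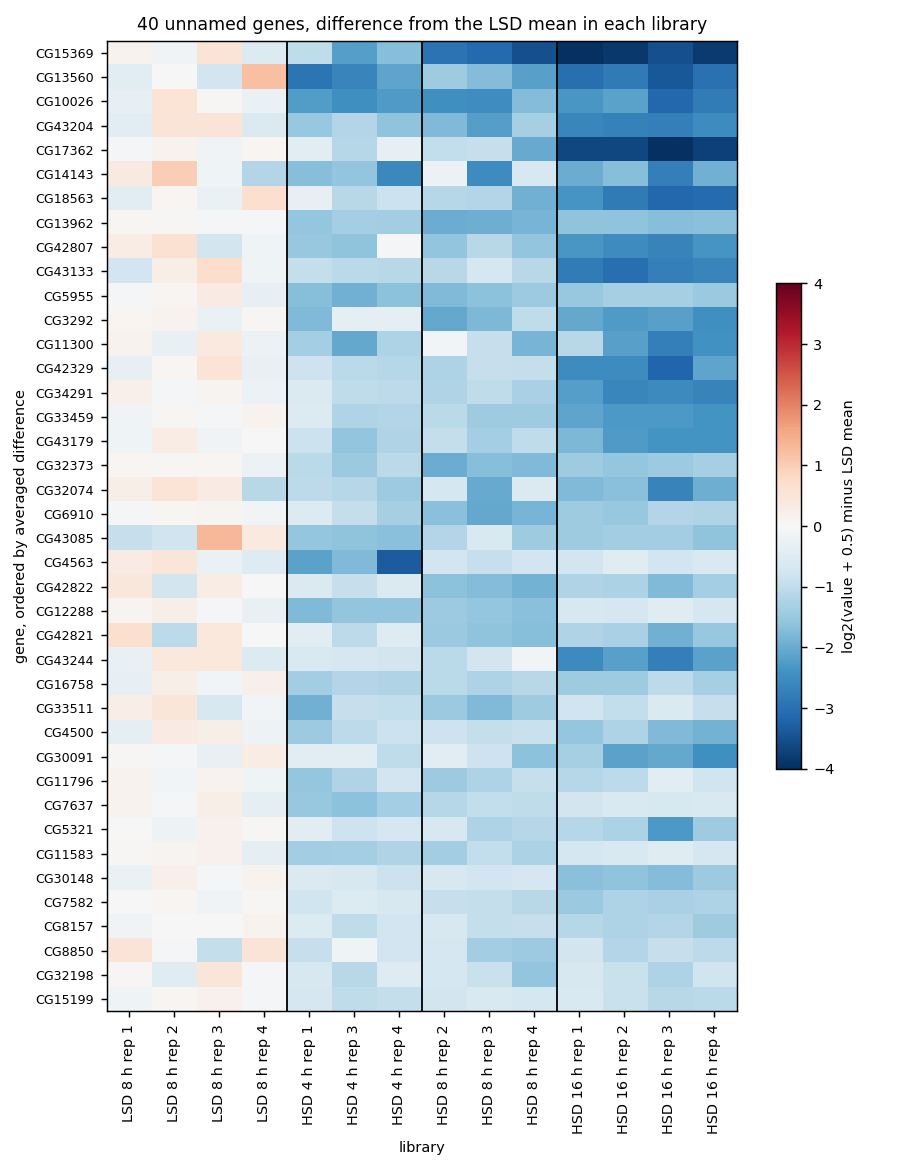
Each row is a member and each column a library; colour gives log2(value + 0.5) minus the mean of the LSD libraries, from blue (lower) to red (higher), with rows ordered by the averaged difference. Blue covers nearly all HSD columns because that is how the genes were chosen; the rows differ in whether the deepest blue is at 4 h, 8 h or 16 h.

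The members with an assigned role are 6 enzymes of amino acid and small-molecule metabolism, 3 lipid-handling proteins, 3 nucleolar or RNA-binding proteins, and 3 serine protease-like proteins with a cystatin-like protein. No role is given here for the other 24. Values below are normalised read counts in replicate order, with replicates 1 to 4 in LSD and in HSD at 16 h, replicates 1, 3 and 4 in HSD at 4 h and replicates 2, 3 and 4 in HSD at 8 h. Positions are those of BDGP6.54, matched through the gene identifiers. Differences between HSD times were not part of the rule, although the same HSD libraries entered it. They were tested with limma on log2(value + 0.5), with Benjamini-Hochberg adjustment over 10114 genes.

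Across all 40 members, 19 were lower at 16 h than at 4 h, where 19.2% of all genes tested were called lower, and 4 were higher (16.6%). From 8 h to 16 h, 16 were lower (15.4%) and 6 higher (14.1%). From 4 h to 8 h, 6 were lower (4.5%) and 2 higher (4.71%). The median log2 difference of the members was -0.53 from 4 h to 16 h, -0.46 from 8 h to 16 h and -0.04 from 4 h to 8 h, against 0 over all genes tested in each. Under quantile normalization the split of all calls moved, from 1946 lower and 1683 higher to 1553 and 2161 between 4 h and 16 h. It moved from 1556 and 1424 to 1114 and 2477 between 8 h and 16 h, and from 455 and 476 to 638 and 391 between 4 h and 8 h. The members then counted 18 lower and 4 higher, 12 and 7, and 6 and 1 in the same order. The summed cuticle and molt markers were lower at 16 h (768 to 4200) than at 4 h (11600 to 16000), and their part in these changes was not tested. Without LSD replicates 2 and 3 and replicate 2 of HSD at 16 h, the libraries high in TwdlJ within groups of mixed level, the members counted 21 lower and 5 higher from 4 h to 16 h, 13 and 7 from 8 h to 16 h, and 6 and 2 from 4 h to 8 h. Without these 3 libraries 39 genes met the rule, and 33 of the 40 members were among them. Those lost were CG12288, CG7637 and CG11583, the nucleolar or RNA-binding members, and CG15199, CG43133, CG43204 and CG43244. All libraries of HSD at 8 h were high in TwdlJ and stayed in, so at 8 h its part was not tested. The 22 members called for 16 h against 8 h became 13 without HSD 8 h replicate 2. The 8 called for 8 h against 4 h became 4 without HSD 4 h replicate 1, 3 without HSD 4 h replicate 4, 3 without HSD 8 h replicate 2, and 4 without HSD 8 h replicate 3 or replicate 4. By the authors' deposited table, of the members 13 were called lower and 6 higher at 16 h than at 8 h, against 15.1% and 14.1% of all its genes, and 3 lower (4.07%) and 1 higher (4.15%) at 8 h than at 4 h. All of these were called here in the same direction.

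**Figure D2:**
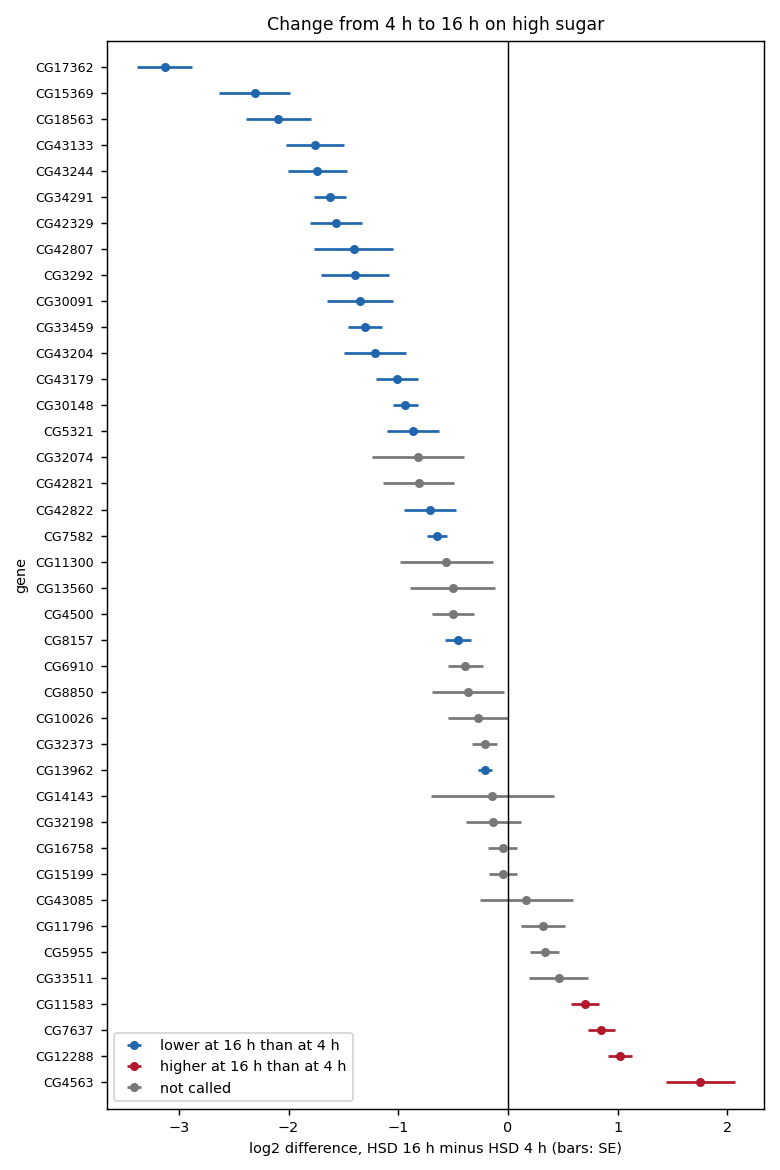
Log2 difference between HSD at 16 h and at 4 h for the 40 members (points; bars are the SE of limma's fit), coloured by whether the adjusted p was under 0.05. The called differences run from -3.13 (CG17362) to 1.75 (CG4563), with 19 below and 4 above 0.

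Among the enzymes, CG5955 (3L, 20466944 to 20469592), annotated as Tdh, encodes threonine dehydrogenase, which starts a route of threonine breakdown. It lay at 49.8, 55, 66.7 and 41.4 in the LSD libraries, at 15.9, 13.6 and 16.4 in HSD at 4 h, at 15.1, 16.4 and 18.7 in HSD at 8 h and at 18.2, 20.4, 20.6 and 18.4 in HSD at 16 h. The LSD libraries were all well above the HSD libraries, which were close together. The mean was 53.2 ± 10.6 in LSD against 15.3 ± 1.51, 16.7 ± 1.79 and 19.4 ± 1.26 (SD) in HSD at 4, 8 and 16 h, and no difference between HSD times passed the test (16 h against 4 h: log2 0.34, SE 0.13, adjusted p = 0.0696). The difference between 16 h and 4 h passed it without LSD replicate 3 (adjusted p = 0.0278) or LSD replicate 4 (0.0309).

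CG11796 (3L, 20438166 to 20439872), annotated as Hpd, encodes 4-hydroxyphenylpyruvate dioxygenase of tyrosine breakdown. It lay at 256, 215, 258 and 209 in the LSD libraries, at 80.1, 101 and 138 in HSD at 4 h, at 85.3, 99.5 and 123 in HSD at 8 h and at 106, 114, 172 and 135 in HSD at 16 h. No HSD library reached the lowest LSD library, but the HSD libraries were spread widely within each time. From 4 h to 16 h the log2 difference was 0.32 (adjusted p = 0.238). It overlaps CG5872 on the opposite strand, and whether counting used strand was not given in the sources.

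CG6910 (3L, 12184984 to 12187860), annotated as Miox, encodes myo-inositol oxygenase, which opens the inositol ring. It lay at 137, 152, 156 and 134 in the LSD libraries, at 99.5, 74.5 and 56.7 in HSD at 4 h, at 44.9, 34.3 and 39.9 in HSD at 8 h and at 53.1, 50.3, 63.8 and 62.8 in HSD at 16 h. The level was lowest at 8 h and no HSD library overlapped LSD. CG6910 fell from 4 h to 8 h (log2 -0.92, SE 0.17, adjusted p = 0.0096) and rose from 8 h to 16 h (log2 0.53, SE 0.16, adjusted p = 0.0263). The rise did not pass the test without HSD 8 h replicate 3 (adjusted p = 0.104) or replicate 4 (0.0672), or without HSD 16 h replicate 3 or replicate 4 (both 0.0659).

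CG16758 (3L, 2499372 to 2503606) encodes a purine nucleoside phosphorylase, an enzyme of purine salvage and breakdown. It lay at 149.8, 218, 174 and 216 in the LSD libraries, at 71, 83.4 and 80.6 in HSD at 4 h, at 88.5, 79.6 and 86.4 in HSD at 8 h and at 69.5, 68.9, 90.8 and 74.8 in HSD at 16 h. All 10 HSD libraries sat in a narrow band below LSD, and the log2 difference between 16 h and 4 h was -0.05 (SE 0.13, adjusted p = 0.806).

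CG5321, of the gamma-butyrobetaine dioxygenase family known from carnitine synthesis, ranged over 48.8 to 64.3 in LSD, 31.3 to 41 at 4 h, 23.6 to 35.9 at 8 h and 11.2 to 25.4 at 16 h. It fell from 4 h to 16 h (log2 -0.87, SE 0.24, adjusted p = 0.0128), a call lost without HSD 4 h replicate 1 (adjusted p = 0.0571). CG3292, annotated as the alkaline phosphatase Alp7, ranged over 35.9 to 47.8 in LSD, 12.4 to 33.8 at 4 h, 10.2 to 21 at 8 h and 7.53 to 10.1 at 16 h. It also fell from 4 h to 16 h (log2 -1.39, SE 0.31, adjusted p = 0.0041); at 4 h replicate 1 lay at 12.4 and the others at 32.7 and 33.8. The other 4 enzymes were not called between 4 h and 16 h.

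Of 38 other measured genes in a list of amino acid catabolism enzymes, 13 were lower and 4 higher than LSD at 4 h in limma's test, 18 and 6 at 8 h, and 15 and 6 at 16 h. The medians were -0.12, -0.30 and -0.18 on the log2 scale, against 0.01, -0.01 and 0 over all genes tested. The shares of all genes called lower than LSD were 11.4%, 16.9% and 20.4% at 4, 8 and 16 h, and those called higher 12.8%, 17.5% and 19.4%. Oat, ornithine aminotransferase, fell from 218 in LSD to 109 at 4 h, 108 at 8 h and 126 at 16 h. Within HSD, from 4 h to 16 h, 8 of the 38 were lower and 7 higher.

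Of the lipid-handling proteins, CG10026 (2L, 19454256 to 19457723) belongs to the CRAL-TRIO family of carriers for lipids such as retinoids and tocopherols. It lay at 8.20, 15.2, 10.8 and 8.42 in the LSD libraries, at 1.78, 1.49 and 1.74 in HSD at 4 h, at 1.49, 1.42 and 2.77 in HSD at 8 h and at 1.68, 1.94, 0.728 and 1.08 in HSD at 16 h. The HSD libraries stayed near the bottom of the scale at all times with no overlap with LSD, and the log2 differences from LSD were -2.32 at 4 h, -2.22 at 8 h and -2.60 at 16 h. CG4563 (2R, 24451084 to 24453040), of the AMP-binding family that includes acyl-CoA synthetases, lay at 135, 149, 88.9 and 74.4 in the LSD libraries, at 24.2, 31.1 and 10.3 in HSD at 4 h, at 62.5, 55.9 and 63 in HSD at 8 h and at 63.2, 76.1, 62.4 and 71 in HSD at 16 h. It was lowest at 4 h, and at 16 h the LSD and HSD libraries overlapped. CG4563 rose from 4 h to 8 h (log2 1.58, SE 0.34, adjusted p = 0.0153) and was higher at 16 h than at 4 h (log2 1.75, SE 0.31, adjusted p = 0.00105). The rise from 4 h to 8 h did not pass without HSD 8 h replicate 2 (adjusted p = 0.0528). CG4500, which RefSeq names hll, encodes a long-chain acyl-CoA synthetase and ranged over 14 to 22.8 in LSD, 6.34 to 9.79 at 4 h, 9.06 to 9.87 at 8 h and 4.50 to 7.31 at 16 h. It fell from 8 h to 16 h (log2 -0.72, SE 0.19, adjusted p = 0.015), a call lost without HSD 8 h replicate 2 (adjusted p = 0.0528).

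**Figure D3:**
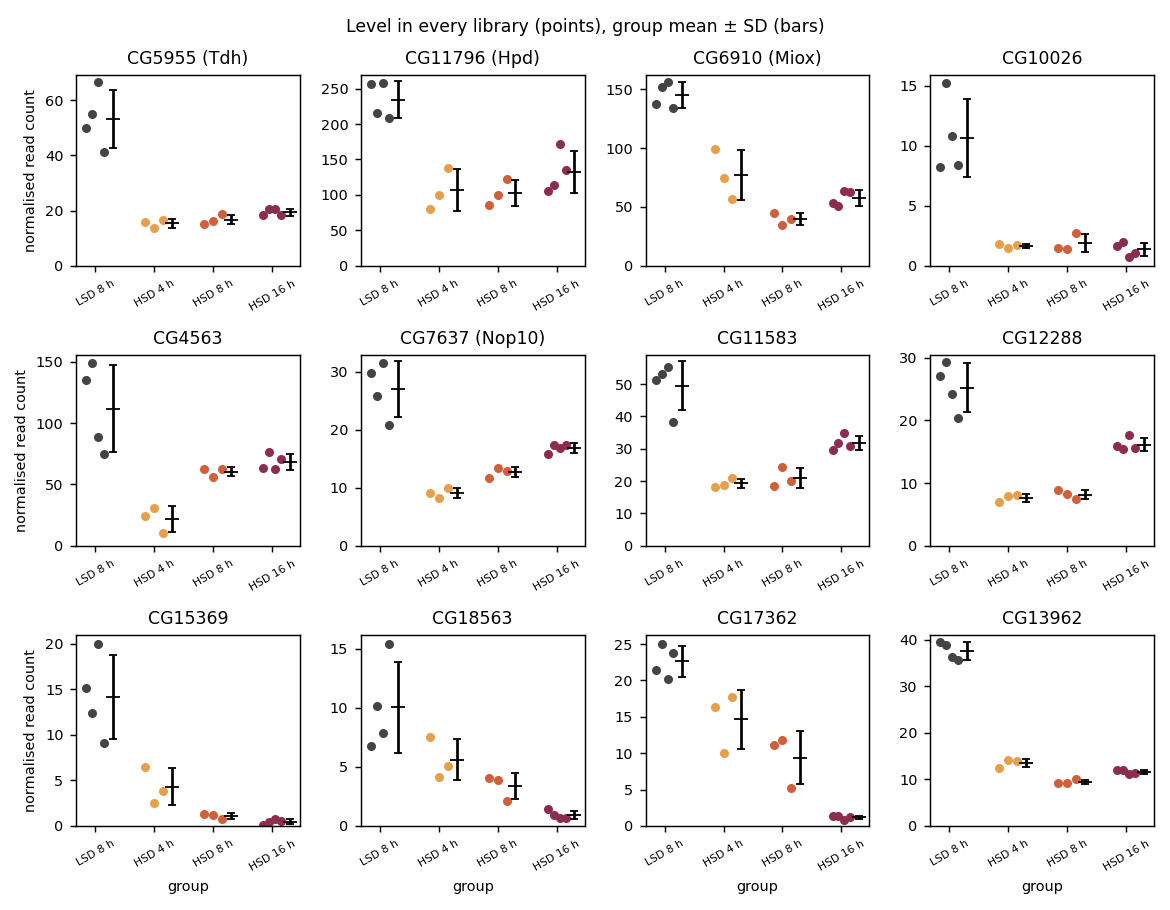
Normalised read counts of 12 members (points are libraries, bars the group mean and SD; n = 4, 3, 3 and 4; each vertical axis starts at 0 and has its own scale). CG5955 lies between 13.6 and 20.6 in all HSD libraries, CG4563, CG7637, CG11583 and CG12288 are lowest at 4 h or 8 h and higher at 16 h, and CG15369, CG18563 and CG17362 lie near 0 at 16 h.

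The nucleolar and RNA-binding members were highest, among the HSD times, at 16 h. CG7637 (2R, 10810556 to 10810936), annotated as Nop10, is a small protein of the H/ACA particles that guide pseudouridylation of ribosomal RNA. It lay at 29.7, 25.9, 31.6 and 20.8 in the LSD libraries, at 9.07, 8.28 and 10.03 in HSD at 4 h, at 11.7, 13.4 and 12.8 in HSD at 8 h and at 15.7, 17.4, 16.8 and 17.4 in HSD at 16 h. The HSD libraries at 16 h were above all those at 4 h and 8 h and still below the LSD libraries. CG7637 rose from 4 h to 16 h (log2 0.85, SE 0.12, adjusted p = 0.000214). It was also called from 4 h to 8 h (log2 0.45, SE 0.13, adjusted p = 0.0476), but leaving out any HSD library in turn gave an adjusted p of 0.0586 to 0.139.

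CG11583 (3L, 4281504 to 4282817), the homolog of the large-subunit assembly factor BRX1, lay at 51.1, 53.3, 55.3 and 38.3 in the LSD libraries, at 18.3, 18.7 and 20.9 in HSD at 4 h, at 18.4, 24.4 and 19.9 in HSD at 8 h and at 29.6, 31.7, 34.8 and 30.9 in HSD at 16 h. CG12288 (2L, 16900535 to 16902218), an RNA-binding protein like RBM34, lay at 27, 29.4, 24.2 and 20.4 in the LSD libraries, at 6.95, 7.99 and 8.11 in HSD at 4 h, at 8.84, 8.19 and 7.51 in HSD at 8 h and at 15.9, 15.4, 17.7 and 15.5 in HSD at 16 h. In both genes the 4 h and 8 h libraries lay together and the 16 h libraries above them. CG11583 rose from 4 h to 16 h (log2 0.70, SE 0.13, adjusted p = 0.001) and so did CG12288 (log2 1.02, SE 0.11, adjusted p = 5.56e-05). All 3 also rose from 8 h to 16 h, with adjusted p = 0.0247 for CG7637, 0.00414 for CG11583 and 0.000217 for CG12288. The CG7637 call was lost without HSD 8 h replicate 2 (adjusted p = 0.0983) or replicate 4 (0.0604), or without HSD 16 h replicate 2 (0.0551) or replicate 4 (0.0558). Each of the 3 overlaps another gene on the opposite strand.

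Of 66 other CG genes in a list of nucleolar and ribosome biogenesis factors, 61 were lower than LSD at 4 h, 62 at 8 h and 35 at 16 h in limma's test, and 1 was higher at each time. Within HSD, 59 of the 66 were higher at 16 h than at 4 h and 1 was lower, with a median log2 difference of 0.76 against 0 over all genes tested. Examples chosen after their values were seen are CG13185 (34.7 at 4 h and 86.6 at 16 h) and CG5033, the homolog of the assembly factor BOP1 (37.4 and 76.7). Among 45 named genes of the same machinery 39 were higher and 1 was lower. Some genes of the CG list have another role.

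The serine protease-like and cystatin-like members all fell from 4 h to 16 h. CG15369 (X, 9216872 to 9217466), like the cystatins that inhibit cysteine proteases, lay at 15.1, 12.4, 19.97 and 9.09 in the LSD libraries, at 6.51, 2.53 and 3.84 in HSD at 4 h, at 1.32, 1.15 and 0.730 in HSD at 8 h and at 0.0932, 0.465, 0.728 and 0.489 in HSD at 16 h. No HSD library overlapped LSD, the libraries at each later time lay below all those of the time before, and the lowest held 2 reads. It fell from 4 h to 8 h (log2 -1.55, SE 0.35, adjusted p = 0.0186) and from 4 h to 16 h (log2 -2.31, SE 0.32, adjusted p = 0.000211), while 16 h against 8 h was not called (adjusted p = 0.0969). The change from 4 h to 8 h was not called without HSD 4 h replicate 1 (adjusted p = 0.0758) or replicate 4 (0.0572), or without HSD 8 h replicate 3 (0.0535) or replicate 4 (0.0662).

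CG18563 (2L, 17456670 to 17458044), serine protease-like, lay at 6.80, 10.1, 7.84 and 15.4 in the LSD libraries, at 7.51, 4.14 and 5.11 in HSD at 4 h, at 4.07, 3.93 and 2.14 in HSD at 8 h and at 1.44, 0.929, 0.637 and 0.684 in HSD at 16 h. At 4 h replicate 1 lay within the LSD range, and at 16 h all libraries were far below it. It fell from 4 h to 16 h (log2 -2.09, SE 0.30, adjusted p = 0.000233) and from 8 h to 16 h (log2 -1.44, SE 0.30, adjusted p = 0.00408). CG33459 fell from 4 h to 16 h (log2 -1.31, SE 0.16, adjusted p = 8.79e-05) and ranged over 15.2 to 18.8 in LSD, 7.04 to 11.5 at 4 h, 6.0 to 7.75 at 8 h and 2.79 to 3.54 at 16 h. CG30091 fell likewise (log2 -1.35, SE 0.30, adjusted p = 0.0038) and ranged over 12.6 to 19.1 in LSD, 7.33 to 11.2 at 4 h, 4.64 to 11.5 at 8 h and 2.39 to 5.82 at 16 h. Of 31 measured CG genes in a list of trypsin-like and other proteases, which holds no member, 11, 22 and 16 were higher than LSD at 4, 8 and 16 h by limma, and 3 were lower at 16 h. Over all genes tested 12.8%, 17.5% and 19.4% were higher at these times, and 20.4% were lower at 16 h.

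Among the 24 members with no role given, 13 fell from 4 h to 16 h and the other 11 were not called. The largest fall was that of CG17362 (3L, 13986620 to 13987184), a protein of 153 residues. It lay at 21.4, 25.1, 20.2 and 23.7 in the LSD libraries, at 16.3, 10.02 and 17.7 in HSD at 4 h, at 11.1, 11.8 and 5.17 in HSD at 8 h and at 1.35, 1.35, 0.865 and 1.22 in HSD at 16 h. The libraries at 4 h and 8 h overlapped each other below LSD, and at 16 h all 4 were near 1. Its fall from 4 h to 16 h passed the test (log2 -3.13, SE 0.25, adjusted p = 1.32e-05) as did that from 8 h to 16 h (log2 -2.47, SE 0.25, adjusted p = 0.000173). CG17362 lies within CG17364, which is on the opposite strand.

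CG34291 (3R, 26425290 to 26425781), a protein of 61 residues, lay at 279, 226, 257 and 205 in the LSD libraries, at 159, 118 and 117 in HSD at 4 h, at 104, 117 and 97.2 in HSD at 8 h and at 52.2, 39, 40.5 and 37.4 in HSD at 16 h. Its libraries at 4 h and 8 h met at their edges, and those at 16 h were lower than all of them. CG34291 fell from 4 h to 16 h (log2 -1.62, SE 0.14, adjusted p = 2.13e-05). CG43133 (-1.76), CG43244 (-1.74), CG42329 (-1.57), CG42807 (-1.41) and CG43204 (-1.21) fell by more than 1 on the log2 scale over the same interval, as did CG43179 (-1.01). At 16 h CG43133 lay at 0.466, 0.338, 0.501 and 0.587, against 3.48, 7.39, 10.5 and 5.45 in LSD, and CG43244 at 1.54, 2.11, 1.27 and 2.20, against 9.22, 15.3, 15.4 and 7.57. At 4 h CG42807 replicate 4 lay at 73.4 and the others at 26.6 and 25.1. CG30148 (-0.93), CG7582 (-0.65), CG42822 (-0.71), CG8157 (-0.46) and CG13962 (-0.21) fell by less than 1.

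CG13962 (2L, 19813704 to 19814532) had the smallest spread over the LSD libraries of all members, an SD of 0.07 on the log2 scale. It lay at 39.5, 38.9, 36.2 and 35.7 in the LSD libraries, at 12.5, 14.2 and 13.9 in HSD at 4 h, at 9.12, 9.22 and 10.02 in HSD at 8 h and at 12.1, 12, 11.2 and 11.3 in HSD at 16 h. Within each group the libraries were close together, and the lowest level was at 8 h. It fell from 4 h to 8 h (log2 -0.49, SE 0.07, adjusted p = 0.0023) and rose from 8 h to 16 h (log2 0.29, SE 0.06, adjusted p = 0.00593). The smaller difference from 4 h to 16 h (log2 -0.21, SE 0.06, adjusted p = 0.0242) was not called without HSD 4 h replicate 3 (adjusted p = 0.0935) or replicate 4 (0.0831), or without HSD 16 h replicate 3 (0.0635) or replicate 4 (0.0584). CG32373 followed the same order, with 38.8 to 48.5 in LSD, 16.1 to 21.1 at 4 h, 11.2 to 13.6 at 8 h and 15.4 to 17.9 at 16 h. It fell from 4 h to 8 h (adjusted p = 0.0117) and rose from 8 h to 16 h (adjusted p = 0.0212). Its fall was lost without HSD 4 h replicate 1 (0.0503) or replicate 4 (0.0521) or HSD 8 h replicate 2 (0.0516), and its rise without HSD 8 h replicate 2 (adjusted p = 0.101) or HSD 16 h replicate 4 (0.0557).

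The members with the highest LSD means were CG8157, CG32198, CG34291, CG11796, CG11300 and CG16758. CG8157 (2R, 15325503 to 15326386), of 113 residues, lay at 549.7, 594, 611 and 668 in the LSD libraries, at 412, 297 and 353 in HSD at 4 h, at 390.1, 312 and 321 in HSD at 8 h and at 275, 258, 265 and 226 in HSD at 16 h. Its groups at 4 h and 8 h overlapped each other and stayed below LSD. CG32198, of 136 residues, lay at 529, 363, 720.1 and 496 in the LSD libraries, at 328, 236 and 361 in HSD at 4 h, at 314, 277 and 173 in HSD at 8 h and at 329, 275, 218 and 298 in HSD at 16 h. LSD replicate 2 was just above the highest HSD library, and no difference between HSD times was called. Per kilobase of exon CG32198 had the highest LSD level of the members, 1120, against a median of 28.3 over members and 11.6 over all genes tested.

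The members with the widest spread over LSD libraries were CG43085, CG14143 and CG13560, with SDs of 1.06, 0.91 and 0.86 on the log2 scale. CG43085 lay at 14.3, 15.4, 69.5 and 35.7 in LSD and at 8.96, 8.57 and 8.23, 11.9, 17.8 and 9.97 and 9.97, 10.01, 10.2 and 8.70 in HSD at 4, 8 and 16 h. LSD replicates 1 and 2 lay below replicate 3 of HSD at 8 h (17.8), so LSD and HSD libraries overlapped at that time. LSD replicate 3 lay far above all HSD libraries. CG33511, CG8850 and CG15199 were not called between any of the HSD times. They ranged in LSD over 10.6 to 23.8, 8.21 to 23.7 and 10.5 to 13.2, and in HSD their log2 differences from LSD lay between -1.56 (CG33511 at 8 h) and -0.61 (CG8850 at 4 h). HSD and LSD libraries overlapped at all times for CG8850 and at 16 h for CG33511. For CG33511 the rise from 8 h to 16 h had an adjusted p of 0.0561, and it passed without LSD replicate 2 (0.0431) or replicate 3 (0.0271) or HSD 4 h replicate 1 (0.0267). CG15199 passed for 16 h against 8 h without HSD 16 h replicate 1 (0.0362).

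**Figure D4:**
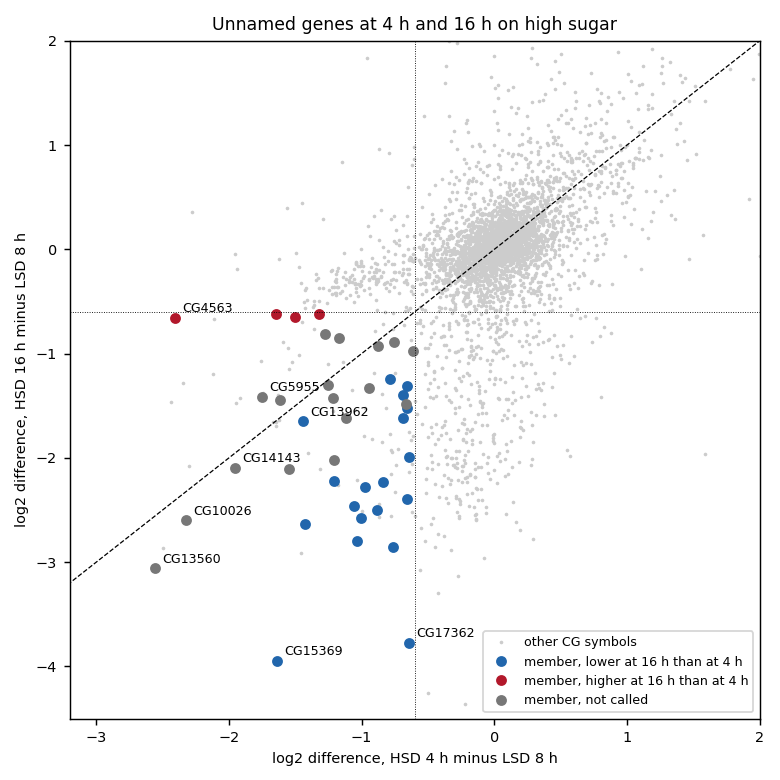
Log2 difference from LSD at 4 h (horizontal) and at 16 h (vertical) for CG genes with a mean of 5 or more in at least 1 group; grey points are other CG genes, larger points the members, the dashed line marks equal differences and dotted lines the threshold of -0.6. Members below the dashed line, such as CG15369 and CG17362, lay lower at 16 h than at 4 h, and CG4563 is the member farthest above it.

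In 3 places members lay within 20000 bases of each other. CG13560 (2R, 23747560 to 23748477) and CG11300 (2R, 23751915 to 23752495) are single-exon genes on the same strand, 3438 bases apart. CG13560 lay at 4.18, 5.68, 3.18 and 14 in the LSD libraries, at 0.334, 0.497 and 0.961 in HSD at 4 h, at 1.84, 1.36 and 0.887 in HSD at 8 h and at 0.279, 0.380, 0.0910 and 0.293 in HSD at 16 h. CG11300, with higher values, lay at 243, 179, 292 and 186 in the LSD libraries, at 85.6, 53 and 92.8 in HSD at 4 h, at 204, 116 and 59.9 in HSD at 8 h and at 102, 48.7, 32.4 and 41 in HSD at 16 h. At 8 h CG11300 replicate 2 reached the LSD range and its other libraries did not. CG13560 fell from 8 h to 16 h (log2 -1.27, SE 0.39, adjusted p = 0.0267), a call lost without HSD 8 h replicate 2 (adjusted p = 0.106) or replicate 3 (0.0679) or HSD 16 h replicate 3 (0.0659), and CG11300 was not called over the same interval (adjusted p = 0.0594).

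CG14143 (3L, 11134987 to 11135480) and CG32074 (3L, 11131883 to 11132322), also of a single exon, lie on opposite strands 2665 bases apart. CG14143 lay at 101, 155, 70.6 and 34.7 in the LSD libraries, at 24.1, 26 and 12.7 in HSD at 4 h, at 67.1, 13.4 and 50.4 in HSD at 8 h and at 19.3, 23.8, 11.3 and 20.3 in HSD at 16 h. CG32074 lay at 13.8, 17.5, 15 and 5.21 in the LSD libraries, at 5.45, 5.09 and 4.02 in HSD at 4 h, at 7.0, 2.51 and 7.72 in HSD at 8 h and at 3.07, 3.38, 1.41 and 2.64 in HSD at 16 h. Both genes were lowest at 8 h in replicate 3 and higher in replicates 2 and 4, and both had their lowest LSD value in replicate 4. The measured gene nol, 481 bases from CG32074 and not a member by its symbol, had log2 differences from LSD of -1.95, -1.40 and -2.04 at 4, 8 and 16 h.

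CG42821 (3R, 17413077 to 17413639) and CG42822 (3R, 17413901 to 17414607) are neighbours on the same strand, 262 bases apart, and both encode 112 residues. CG42821 lay at 25.4, 7.64, 21.7 and 15.9 in the LSD libraries, at 11.8, 7.58 and 11.1 in HSD at 4 h, at 5.45, 4.91 and 4.64 in HSD at 8 h and at 6.66, 6.29, 3.91 and 5.38 in HSD at 16 h. CG42822 lay at 28.5, 12, 25.3 and 20.2 in the LSD libraries, at 13.6, 10.6 and 13.6 in HSD at 4 h, at 6.20, 5.84 and 5.22 in HSD at 8 h and at 8.52, 8.24, 5.64 and 7.72 in HSD at 16 h. In both genes LSD replicate 2 was the lowest and replicate 1 the highest of the LSD libraries. CG42822 fell from 4 h to 16 h (log2 -0.71, SE 0.24, adjusted p = 0.0338), and without HSD 4 h replicate 1 or replicate 4 the adjusted p was 0.106 and 0.101, and without HSD 16 h replicate 3 or replicate 4 it was 0.0911 and 0.0572. For CG42821 it was 0.0685, and 0.00837 without LSD replicate 2. How reads shared by the pair would be counted was not tested.

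As neighbours, the nearest measured gene on either side of each member was taken at any distance, up to 144181 bases. Genes that overlap the member were passed over. This gave 72 genes that are not members. Of these 3 (4.17%), ssp7, SPH93 and nol, lay at least 0.6 below LSD at all times, against 37 of 10074 other genes tested (0.367%). SPH93, a serine protease homolog 747 bases from CG18563, had log2 differences of -1.67, -1.68 and -4.20 at 4, 8 and 16 h beside -0.77, -1.42 and -2.86 for CG18563. The gene ssp7, 211 bases from CG15199, had -0.89, -1.26 and -1.36 beside -0.88, -0.67 and -0.93.

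**Figure D5:**
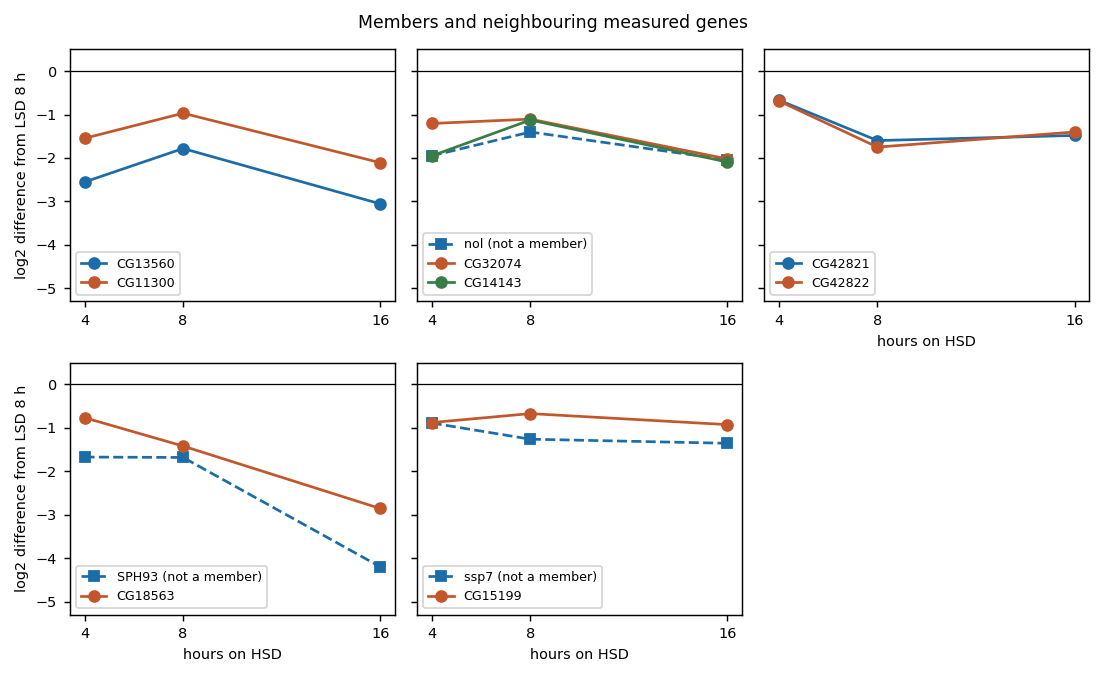
Log2 difference from LSD (vertical) against hours on HSD (horizontal) at the 5 places where members lie within 20000 bases of each other or next to a gene that lay at least 0.6 lower at all times; circles are members and squares on dashed lines are genes that are not members. CG42821 and CG42822 nearly coincide, and SPH93 lies below CG18563 at each time.

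Of the 40 members 39 were matched to the annotation, all but CG4500. Their proteins had a median length of 254 residues, against 412 over 3741 other CG genes with a mean of 5 or more, and 18 (46.2%) had at most 160 residues, against 442 (11.8%). A single exon was annotated for 7 (17.9%), against 443 (11.8%). The median length of all exons of a gene's canonical transcript added together was 1060 bases against 1750. Members lay on X (4), 2L (6), 2R (13), 3L (11) and 3R (5). The 3741 other CG genes lay on X (653), 2L (624), 2R (693), 3L (788), 3R (968) and chromosome 4 (15). Protein length was not part of the rule, and these shares are given as a description. Another annotated gene overlaps 15 of the members, and the share over other genes was not examined. For CG32373 some of the overlapping genes, such as CG7409 and CG13685, lie on the same strand. How reads shared with them would be counted was not tested.

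Among genes with other kinds of symbol, 23 of 5072 (0.453%) met the same thresholds, against 1.08% of CG symbols. The 4 with the largest averaged difference were Sardh, SPH93, Uro and lectin-24A. Sardh, sarcosine dehydrogenase, had a mean of 50.05 in LSD and of 17.8, 6.21 and 2.32 in HSD at 4, 8 and 16 h. Uro, urate oxidase of purine breakdown and a marker of Malpighian tubules, had means of 57.6, 33.6, 24.6 and 3.31 in the same order. The 4 Malpighian tubule markers together, Uro among them, summed to 695 to 1110 in LSD and to 962 to 1050 in HSD at 16 h. Uro makes up a small part of that sum, and whether the share of tubule tissue changed was not tested. CG16758, of purine salvage and breakdown, had means of 189 ± 33.4 in LSD and 78.3 ± 6.47, 84.8 ± 4.61 and 76 ± 10.2 (SD) in HSD at 4, 8 and 16 h. Unlike the mean of Uro, that of CG16758 changed little within HSD. No list of purine genes was examined.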

How the data were processed

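The members and gene lists were chosen with earlier results of these data known. Per the labels' protocols, stranded single-end libraries were prepared after removal of ribosomal RNA from whole-larva RNA. The submitters' processing notes name limma, HTSeq, TopHat2 2.1.0 and Trimmomatic. For build, annotation and strand setting no statement is given in the sources used here. The authors deposited a signal per library, reads over an effective library size, and 100% of the values were whole multiples of 1 read within 0.01 read. Their column sums run from 910679 to 1063358, so they were not treated as CPM, for which the tests had been written, and the same test was used. The deposited log2 fold changes and adjusted p-values of the authors were used for counts of calls alone. The labels list 16 libraries and mark 2 as removed outliers, namely replicate 2 of HSD at 4 h and replicate 1 of HSD at 8 h, which are not analysed here. Groups came from the sample titles.

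Values were tested as log2(value + 0.5) with limma 3.58.1 (R 4.3.3, variance trend) in 1 fit of the 4 groups with 10 residual degrees of freedom. Genes entered where 3 or more libraries had a value of at least 1 (10114, with 14 left out), and all 40 members were among them. P-values are two-sided, with Benjamini-Hochberg adjustment over all genes tested and a threshold of 0.05. The log2(value + 0.5) scale understates the change of low genes. Recovered reads were also tested with edgeR 4.0.16 (quasi-likelihood) and DESeq2 1.42.0, and the fit was tested on simulated data. Gene identifiers were matched to Ensembl's annotation of BDGP6.54, and 9990 of the 10128 were found. The members named were the 12 with the largest averaged difference, the 6 with the highest LSD mean, those nearest the threshold, up to 6 called per direction and contrast, those within 20000 bases of another, those with a role, and the 3 with the largest and smallest LSD spread. Members named besides these complete the account of all 40. Alternatives covered the pseudocount, the filter, the scaling, the fit, a replicate block and leaving out each library.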

Additional observations from a re-analysis of the deposited data

Results flagged for a closer look

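In 80 groups of 4 libraries (40 members in LSD and in HSD at 16 h), a single library standing apart from the other 3 was looked for, by Dixon's 95% critical value for the gap divided by the range. It was found in 2 groups, and chance alone flags about 1 in 20 groups. CG32373 lay at 38.8 in LSD replicate 4 and at 46.8 to 48.5 in the other LSD libraries, a gap of 0.839 of the range. CG43085 lay at 8.70 in HSD 16 h replicate 4 and at 9.97 to 10.2 in the other libraries of that group, a gap of 0.858 of the range.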

How the results depend on the processing

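The number of members is set by the thresholds: 62 genes met the rule with a difference of 0.5, 14 with a difference of 1, and 22 with a mean of 20 or more. Leaving out single libraries gave 36 to 50, and these counts hide an exchange of genes. Without LSD replicate 3, 39 genes met the rule, and only 33 of these were members. Without LSD replicate 1 the counts were 39 and 34, and without HSD 4 h replicate 3 they were 36 and 34. No member was lost without HSD 16 h replicate 3 or replicate 4. The members called for 16 h against 4 h numbered 23, and 21 to 25 without single libraries. Those for 16 h against 8 h numbered 22, and 13 to 24. Those for 8 h against 4 h numbered 8, and 3 to 9. EdgeR called 23, 22 and 8 members and DESeq2 24, 25 and 8. In all 27 alternatives 19 of the 23, 12 of the 22 and 1 of the 8 calls (CG13962) held. No member reversed its direction in a called difference. The 4 calls for 16 h against 4 h that were lost in some alternatives were CG13962, CG42822, CG5321 and CG8157, the last under quantile normalization (adjusted p = 0.075). CG15369 and CG13560, at 2 reads in a library, are limited by depth.

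With the replicate number as a block, 22 members were called between 4 h and 16 h, 17 between 8 h and 16 h and 1 between 4 h and 8 h. Of 18 pairs with the same number 6 deviated together with a correlation over 0.1, and the correlations ran from -0.46 to 0.35. For pairs with different numbers they ran from -0.50 to 0.56. The deviations were taken from means of few libraries, so whether the numbers pair the samples is not settled by this. Over all genes the block moved the calls for 8 h against 4 h from 931 to 159.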

Other observations

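The other pathway lists hold no member. Over all genes tested limma called 11.4%, 16.9% and 20.4% lower than LSD at 4, 8 and 16 h, and 12.8%, 17.5% and 19.4% higher. Between 4 h and 16 h it called 19.2% lower and 16.6% higher. The lists were called against LSD by limma as follows, and nothing is read from counts near these shares. Of 23 gut lipases 4 were lower and 3 higher at 4 h, 7 and 2 at 8 h, and 14 and 4 at 16 h, with 13 lower and 2 higher at 16 h than at 4 h. Of 30 genes of fatty acid oxidation and lipolysis, 4 were lower and 9 higher at 4 h, 7 and 6 at 8 h, and 11 and 5 at 16 h. At 16 h 15 of these 30 were lower than at 4 h, and 4 were higher. Of 32 cytochrome P450, glutathione and glucuronosyl transferase genes 3, 3 and 5 were lower and 11, 20 and 18 higher at 4, 8 and 16 h. Of 50 CG solute carriers 4, 1 and 5 were lower and 10, 20 and 19 higher. Of 14 Myc and TOR regulators 4 were lower at 4 h and 1 at 8 h, and 3, 5 and 3 were higher at the 3 times. Of 8 odorant-binding proteins 2, 2 and 3 were lower, and 2 were higher at 16 h.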
